A study of Drosophila melanogaster with 2 samples.

Results

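The insulin and TOR pathway was followed through 9 growth genes of Drosophila melanogaster, InR, chico, Pi3K92E, Akt, foxo, Tor, raptor, S6k and Thor, taken by name from 13945 protein-coding genes on the arms 2L, 2R, 3L, 3R, 4 and X. For each gene, the peaks and the candidates of a chromatin immunoprecipitation experiment were collected wherever their summit lay within 500 bp of one of its annotated transcription start sites (TSS). The immunoprecipitated protein was sunspot (ssp) fused to enhanced green fluorescent protein, recovered with an antibody against the fluorescent tag after sonication to 200 to 800 bp. The material was whole embryos of the strain ssp-GFP, which carries an insertion that targets ssp, collected from 0 to 24 h, so all tissues and embryonic stages were pooled. The 2 biological replicates belong to a single group, ssp-eGFP embryo, in which every embryo came from the tagged strain. The labels do not state what drives the transgene or whether the untagged protein was also present, and the control library they name is not analysed here.

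Insulin-like peptides activate the receptor InR, which signals through the adaptor chico to phosphoinositide 3-kinase and Akt. Akt phosphorylates the transcription factor foxo and keeps it out of the nucleus. The kinase Tor, with raptor in TOR complex 1, integrates this input with amino acid supply and controls translation through the kinase S6k and the translation repressor Thor, the fly 4E-BP. Sunspot is a transcription factor reported in flies to act downstream of Wingless signalling and to activate cell cycle genes.

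The authors' lists held 4948 peaks for both replicates together (the combined list), 4719 in a conservative version, 3606 in replicate 1 and 3437 in replicate 2. These thresholded peaks passed an irreproducible discovery rate (IDR) of 0.01, and each list came with a ranked list of candidates, 130840 for the combined list, most of which had failed. The signal given below is the authors' value for each peak from their peak caller, in the caller's own units, and was used to rank peaks within a list. The lists hold no read counts, so the sequencing depth behind a signal is unknown.

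Of the 9 genes, 3 had a combined peak within 500 bp of a TSS: Tor, Akt and foxo. For comparison, 2984 of the 10362 protein-coding genes with a combined candidate in that window had a peak there (28.8%). Of the 9 genes, 8 had such a candidate and chico had none. The 3 of 8 (37.5%) differ from that share by less than 1 gene, and no test was made. The 3 peaks differed widely in strength, with combined signals of 2151 at Tor, 133 at Akt and 107 at foxo. The median of the 2338 combined peaks within 500 bp of a protein-coding TSS was 168, with quartiles of 105 and 357, and Tor stood far above the upper one.

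The sequences under the summits at Tor, Akt and foxo, under the strongest peak in InR and just before the Thor start are shown because they carry the peaks described below. Each is read 5′ to 3′ on the strand of the gene from the dm6 assembly, and capitals mark matches to the motifs named afterwards. The first 4 are the summit, at base 51, with 50 bases on each side. The Thor sequence is the 100 bases before the upstream start site, with the summit at base 79, and its first capitals lie more than 50 bases from the summit.
Tor, chr2L:13004143-13004243, plus strand: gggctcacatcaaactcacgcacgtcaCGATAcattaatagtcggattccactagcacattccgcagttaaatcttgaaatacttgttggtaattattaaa
Akt, chr3R:16099048-16099148, plus strand: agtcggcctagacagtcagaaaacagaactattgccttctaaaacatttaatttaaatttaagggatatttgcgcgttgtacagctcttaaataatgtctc
foxo, chr3R:14056523-14056623, plus strand: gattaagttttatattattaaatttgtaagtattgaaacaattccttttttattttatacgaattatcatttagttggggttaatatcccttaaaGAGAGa
InR, chr3R:21590806-21590906, minus strand: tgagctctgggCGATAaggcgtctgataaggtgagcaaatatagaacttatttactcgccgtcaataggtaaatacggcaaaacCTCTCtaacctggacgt
Thor, chr2L:3478334-3478433, plus strand: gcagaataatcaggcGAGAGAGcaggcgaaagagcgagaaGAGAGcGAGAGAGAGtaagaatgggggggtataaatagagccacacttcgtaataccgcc

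**Figure D1:**
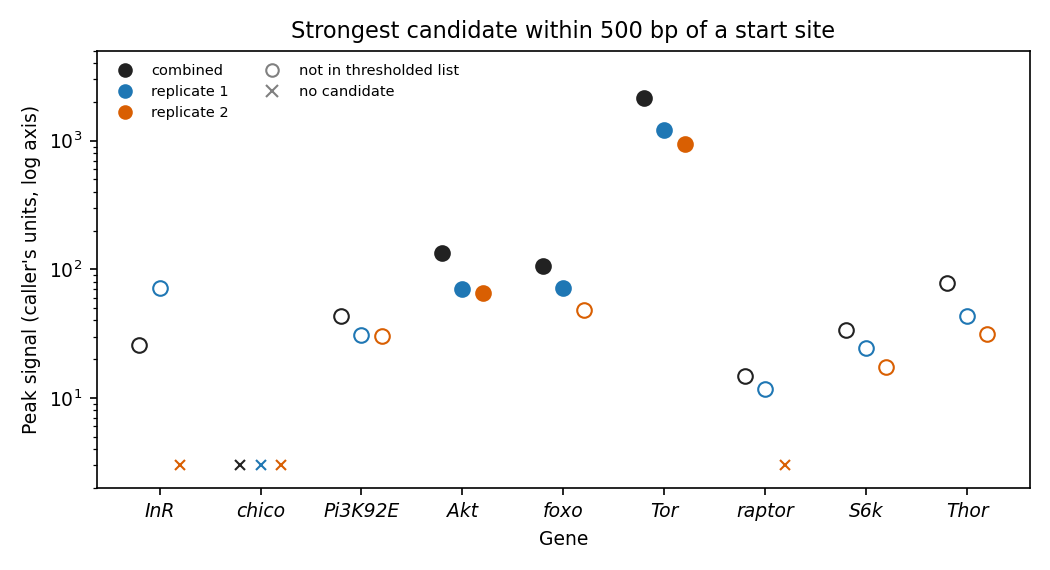
Signal of the strongest candidate within 500 bp of a start site of each of the 9 genes (log axis, caller's units) in the combined list (black), replicate 1 (blue) and replicate 2 (orange). Filled points are in the thresholded list, open points are candidates only, and a cross marks a list with no candidate there. Tor lies at 938 or higher in all 3 lists, Akt is filled in all 3, foxo is open in replicate 2, and chico has crosses only.

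At the head of the pathway, the receptor gene InR (FBgn0283499, 3R from 21570248 to 21619321, minus strand) had no peak within 500 bp of its 4 start sites. The strongest combined candidate in that window had a signal of 25.9 and an IDR of 0.885. A peak did lie inside the gene, in an intron, with its summit at 21590856 on 3R, 665 bp upstream of the most downstream start site at 21590191. Its signal was 271 in the combined list, where it ranked 1105 of 4948, 176 in replicate 1 and 100.01 in replicate 2. The peak was thresholded in both replicates and its summits there lay 3 bp apart. A window of 1000 bp would count it as a peak of InR.

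The log2 ratio of replicate 2 to replicate 1 at this InR peak was -0.82. The reference was the 2106 protein-coding genes with a peak within 500 bp of a TSS in both replicate lists. Their ratio had a median of -0.19 with an SD of 0.33, and its 5th percentile was -0.71. The InR peak, 665 bp from a TSS, is not among those peaks. A difference in scale between the replicate lists would enter this ratio. The InR peak lay below that percentile, on the side of a lower signal in replicate 2. A weaker intronic peak of InR, at 21598100, had a combined signal of 75.4 and an IDR of 0.00607, and was not thresholded in either replicate, where its signals were 40.7 and 33.2.

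At the most upstream InR start site, 21619321, replicate 1 held a candidate 100 bp upstream with a signal of 71.6 and an IDR of 0.0019. It was absent from the thresholded list of replicate 1 although its IDR was under 0.01, and the other lists had no candidate there. A combined candidate in another InR intron, at 21613074, had a signal of 137 and an IDR of 0.000407 and was also absent from the thresholded list. Such entries were few: 198 of 5146 combined candidates at or under the threshold were missing from the thresholded list, and 135 of 3741 in replicate 1. The sources used here do not state why.

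The adaptor gene chico (FBgn0024248, 2L from 10242512 to 10247078, minus strand), the fly insulin receptor substrate, had no candidate of any list in the gene or within 2000 bp of it. The nearest combined summit, 7851 bp downstream of its TSS, was a thresholded peak with a signal of 433. The TSS lay in a stretch of 18644 bp between neighbouring combined candidates, where the median spacing was 662 bp. Stretches at least that long made up 0.375% of all by number, and a larger share by length. In replicate 1 the stretch was 18701 bp and in replicate 2 it was 21925 bp. Of all protein-coding genes, 795 (5.7%) had no candidate of any list within 2000 bp of a TSS.

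Pi3K92E (FBgn0015279, 3R from 20628972 to 20634732, minus strand), the catalytic subunit of the class I phosphoinositide 3-kinase, had a weak peak just outside the window. Its summit, at 20634198, lay 534 bp downstream of the TSS in the 5′ UTR. The combined signal was 71.7, which ranked 4470 of 4948, at an IDR of 0.00402. The replicate candidates at this place were not thresholded, with a signal of 48.4 and an IDR of 0.0108 in replicate 1 and a signal of 30.5 and an IDR of 0.172 in replicate 2. Their summits lay 591 bp downstream of the TSS in replicate 1 and 469 bp in replicate 2, on either side of the 500 bp limit. Inside the window the strongest combined candidate, 18 bp upstream of the TSS, had a signal of 43.6 and an IDR of 0.393.

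Akt (FBgn0010379, 3R from 16099228 to 16105670, plus strand), the kinase that relays the insulin signal, had a peak of middling strength. Its summit at 16099098 lay 130 bp upstream of the upstream start site, in intergenic sequence. The combined signal of 133 ranked 2475 of 4948, and the peak was also thresholded at 70.7 in replicate 1 and 65.5 in replicate 2. The replicates gave similar signals, with a log2 ratio of -0.11, but their summits lay 94 bp apart. At the second Akt start site, 16100760, a candidate 232 bp upstream had a signal of 37.9 and an IDR of 0.782 and was not thresholded.

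The Akt peak cannot be given to Akt alone. Mhcl (FBgn0026059), a myosin heavy chain-like gene, starts in the opposite direction 467 bp away, and the summit lay 337 bp upstream of its TSS. A further peak, 1392 bp upstream of Akt and in an intron of Mhcl, was stronger, with a combined signal of 187 and signals of 75.2 in replicate 1 and 116 in replicate 2. Here the replicate summits lay 2 bp apart, and replicate 2 was the higher one, with a log2 ratio of 0.62. This is above the 95th percentile of 0.28 over the genes with a peak in both replicates. Those are peaks within 500 bp of a TSS, while this one lay 1392 bp from the Akt TSS and 925 bp from the Mhcl TSS.

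The transcription factor gene foxo (FBgn0038197, 3R from 14056945 to 14087978, plus strand) had a peak 372 bp upstream of its upstream start site, with the summit at 14056573. The combined signal was 107, rank 3126 of 4948, at an IDR of 0.000809. Replicate 1 held it as a thresholded peak of 71.3. In replicate 2 the candidate at the same place had a signal of 48.1 and an IDR of 0.631 and was not thresholded.

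Of the single-replicate lists, only that of replicate 1 thus held the foxo peak. Among the 2984 genes with a combined peak, 2086 (69.9%) had a peak in both replicate lists, 346 in replicate 1 only, as foxo did, and 250 in replicate 2 only. No other gene started within 500 bp of this summit, in contrast to the peaks at Tor and Akt. Downstream of the summit the foxo transcription unit was empty in the combined list, with no candidate for 36193 bp. By number, 0.0829% of candidate spacings were as long, and such spacings cover a larger share of the sequence than that. The stretches at foxo were shorter in the single replicates and ended inside the gene. In replicate 1 the stretch ran 18093 bp from the weaker summit, 177 bp upstream of the TSS, and 0.417% of spacings were as long. In replicate 2 it ran 20601 bp from the peak summit, and 0.472% of spacings were as long.

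The strongest peak of the pathway lay at Tor (annotated as mTor, FBgn0021796, 2L from 13004480 to 13013197, plus strand), the kinase of both TOR complexes. It spanned 13003990 to 13004479, ending 1 base before the gene, and its main summit lay 287 bp upstream of the only TSS. The combined signal of 2151 ranked 85 of 4948, at the 98.302nd percentile. Replicate 1 gave 1201, rank 73 of 3606, and replicate 2 gave 938, rank 105 of 3437.

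The replicate summits at Tor lay 2 bp apart, and the log2 ratio of -0.36 was within 1 SD of the median ratio. The IDR was 1e-05 in the combined list and in both replicates, the smallest value the lists record for these genes. The stronger InR peak in replicate 1 and the Akt peak in the Mhcl intron in replicate 2 also reached it. A second summit of the Tor interval lay 87 bp upstream of the TSS with a signal of 57.7, near the bottom of the list. It was the summit counted with a window of 200 bp.

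The Tor peak lies between 2 divergent genes whose start sites are 373 bp apart. The other gene is Vha68-1 (FBgn0265262), which encodes a catalytic subunit of the vacuolar proton pump. The main summit lay 86 bp upstream of the Vha68-1 TSS, closer than to Tor. Of the 2338 promoter peaks, 938 (40.1%) lay within 500 bp of start sites of at least 2 protein-coding genes, so such sharing was common. Nearest-TSS assignment still kept a Tor peak, because the weaker summit is nearer to Tor.

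Over the combined and replicate lists, the 2086 genes with peaks in all 3 were ranked by Euclidean distance to Tor in log2 signal. Vha68-1 had a distance of 0.000 because it is assigned the same peak. Pfrx, CG14200 and ksh, which share a peak on X, tied next at 0.043, with signals of 2129.5, 1178 and 957. The measure describes similar peak heights only.

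**Figure D2:**
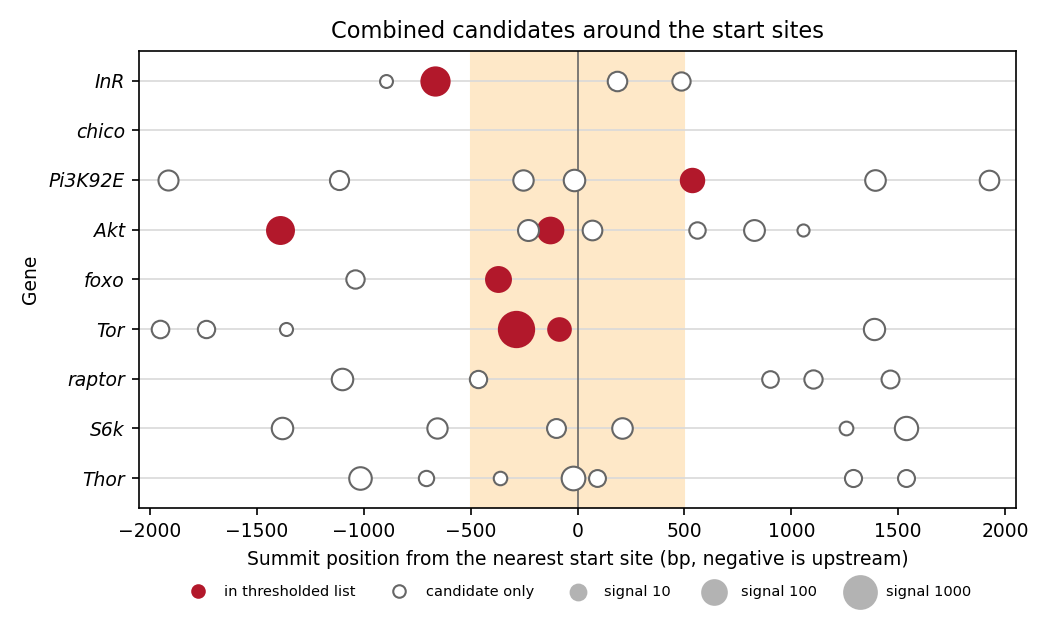
Summits of all combined candidates within 2000 bp of a start site of the 9 genes, by position from the nearest start site in bp (negative is upstream), with circle area growing with signal. Filled circles are thresholded peaks, open circles are candidates only, and the band marks 500 bp on each side. Filled circles fall inside the band at Akt, foxo and Tor, just outside it at InR and Pi3K92E, and no circle is drawn at chico.

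The remaining TOR genes carried candidates but no combined peak. raptor (FBgn0029840, X from 6082634 to 6090201, minus strand), the scaffold of TOR complex 1, had a combined candidate 466 bp upstream with a signal of 14.8 and an IDR of 0.578. Replicate 1 had one of 11.8 at 203 bp upstream, and replicate 2 had none within 500 bp. The nearest combined peak was 7554 bp away from the raptor TSS.

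S6k (FBgn0283472, 3L from 5797549 to 5810931, minus strand), the ribosomal protein S6 kinase, had combined candidates of 33.9 at 206 bp downstream and 22.1 at 100 bp upstream of its TSS. Their IDR values were 0.885 and 0.762, and 0.3 and 0.483 in the conservative list, all far from the threshold. The strongest candidates in the window were 24.6 in replicate 1 and 17.3 in replicate 2. A stronger candidate in an intron, 1539 bp downstream, reached a signal of 71.0. Its IDR was 0.254 in the combined list and 0.0456 in the conservative list, and neither list called it. The nearest combined peak was 2340 bp from the TSS.

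Thor (FBgn0261560, 2L from 3478434 to 3479612, plus strand) had a peak in the conservative list but not in the combined list. Its candidate lay 22 bp upstream of the upstream start site, with a combined signal of 77.8. The combined list gave it an IDR of 0.583 and left it out, while the conservative list, with the same interval and signal, gave it an IDR of 0.0059 and kept it at rank 4113 of 4719. In replicate 1 the signal was 43.3 with an IDR of 0.528, and in replicate 2 it was 31.6 with an IDR of 0.837, so neither replicate called it.

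The Thor signal sits where calls are mixed. Of 1246 combined candidates with a signal within 1.1-fold of it, 652 (52.3%) were in the thresholded list. The Pi3K92E peak, with a lower signal of 71.7, was inside the threshold by its IDR of 0.00402, and the Thor candidate was outside. Thor was one of 156 protein-coding genes with a peak in the conservative list only, beside 228 in the combined list only and 2756 in both.

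In the order of combined signal within 500 bp of a TSS, Tor came first, followed by Akt, foxo, Thor, Pi3K92E, S6k, InR and raptor. With 2 replicates whose lists share no stated scale, neighbours in this order were compared within each replicate and no SD was given. Tor exceeded every other gene in both replicates. For Akt and foxo the order turned, with foxo at 71.3 above Akt at 70.7 in replicate 1 and Akt above foxo in replicate 2. Thor lay below both in each replicate. InR lay near the bottom in the combined list, but at 71.6 above Akt in replicate 1 and with no candidate in replicate 2.

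The base composition and motifs at these peaks differed from gene to gene. The 101 bases at the summit had a GC content of 38.6% at Tor, 34.7% at Akt, 21.8% at foxo, 44.6% at the stronger InR peak and 51.5% at Thor. The median was 33.7% over 4914 combined peaks on the arms (quartiles 27.7% and 42.6%) and 43.6% over 19253 protein-coding start sites (quartiles 37.6% and 50.5%). foxo was below the lower quartile of the peaks, and InR and Thor were above the upper one.

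A set of 10 short motifs was sought on both strands within 50 bp of these summits. The core of the boundary factor BEAF-32, CGATA, was found at Tor, at both InR peaks and at Pi3K92E, and it was held by 18.8% of all combined peaks and 23.6% of start site windows. The GAGA motif, GAGAG, was found at foxo, at the stronger InR peak and at Thor, and was held by 8.45% of peaks and 12.7% of start sites. The core of Ohler motif 6, GTATNTTT, was found at the weaker InR peak and was held by 5.6% of peaks.

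Neither Akt peak held any of the 10 motifs in this window. With 100 bp on each side, the Akt promoter peak held the BEAF-32 core and GAGA, and the other Akt peak still held none. In that wider window 32.4% of all combined peaks held the BEAF-32 core and 20.5% held GAGA. The FOXO core GTAAACA, the site of the factor at the end of this pathway, was in none of these windows and in 2.3% of all combined peaks. The DREF element TATCGATA, the M1BP core GGTCACAC, Ohler motif 7 CANCNCTA, the E2F core TTTNGCGC, the E-box CACGTG and the TCF core CTTTGAT were likewise absent from these windows. Each of these was rare in such windows of all combined peaks, held by 0.916% (E-box) to 4.42% (Ohler motif 7) of them. The CGATA core is contained in the DREF element, so these motifs overlap. The 5 words of 6 bases found in the most combined peaks were made of A and T alone, each in 29.7 to 34.2% of peaks and 15.4 to 21.3% of start site windows. The Akt promoter peak held 2 of these 5 words, the foxo peak held 3, and the main Tor summit held 0.

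The wider pathway was described by 62 further genes sorted by role. Of these, 55 had a combined candidate within 500 bp of a TSS and 24 had a peak, which is 43.6% of the 55 beside 28.8% for all protein-coding genes. No test was made of this difference. The strongest peak of each of the 24 genes had a median signal of 249, ranging from 76.2 to 1421, beside a median of 189 over all 2984 genes with a peak. In 19 of the 24 the strongest peak overlapped one in both replicate lists, and at RpS6, Wdr59 and Ilp7 it overlapped none. All 24 had the summit upstream of their own TSS. Of all promoter peaks, 84.3% had it upstream of the nearest protein-coding TSS, which can belong to another gene, so the measures differ. At 10 of the 24 another protein-coding gene also started within 500 bp.

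**Figure D3:**
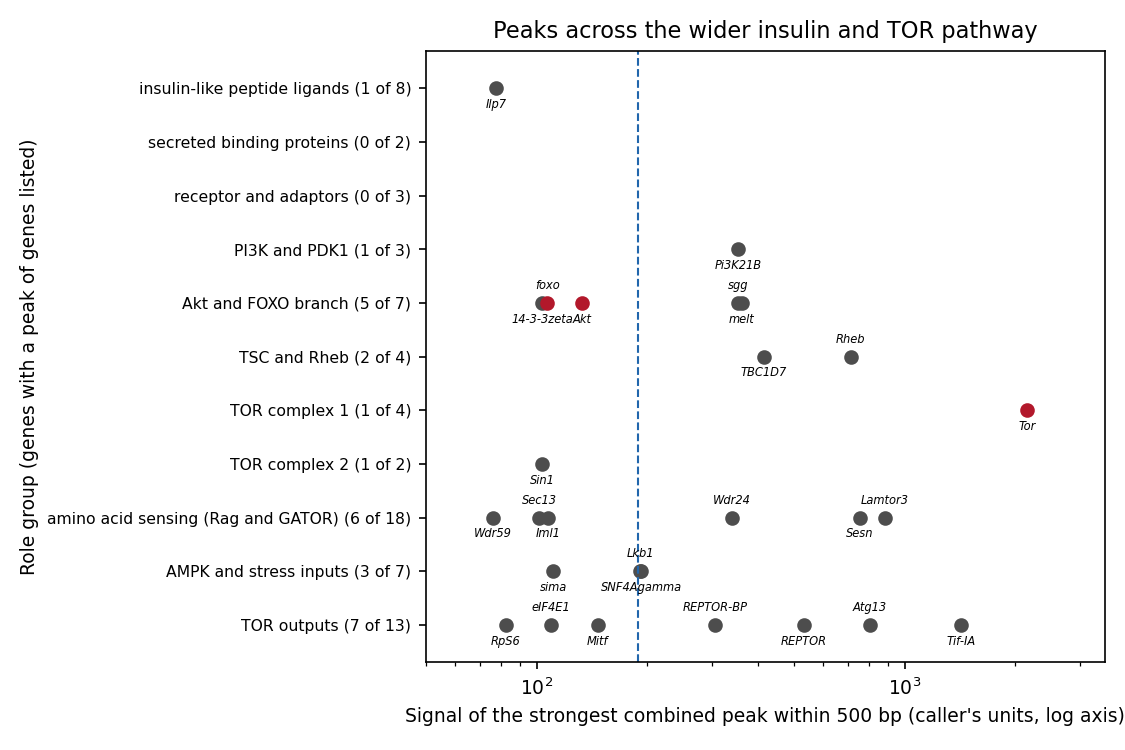
Signal of the strongest combined peak within 500 bp of a start site (log axis, caller's units) for every gene of the wider list that had one, by role group, with the number of genes with a peak of those listed. Red points belong to the 9 genes, and the dashed line at 189 is the median over all protein-coding genes with a peak. Tor at 2151 and Tif-IA at 1421 lie furthest right, and the receptor and adaptor group and the secreted binding proteins are empty.

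Counts by role are given as genes with a peak among genes with a candidate, beside 28.8% for all protein-coding genes, and no role group was tested. All 8 insulin-like peptide genes had a candidate, and of them Ilp7 alone had a peak, at a signal of 77.4 in the combined list and in neither replicate list, and Ilp1 to Ilp6 and Ilp8 had none. The secreted binding proteins ImpL2 and Sdr, 1 of 2 with a candidate, had none either. Nor did the receptor and adaptor genes InR, chico and Lnk, 2 of 3 with a candidate. In the lipid kinase step, 2 of 3 genes had a candidate and 1 had a peak. Pi3K21B, the regulatory subunit that partners Pi3K92E, had a peak of 353, with 170 in replicate 1 and 175 in replicate 2. Pdk1, the kinase that phosphorylates Akt, had none. In this step the regulatory subunit thus had a peak within 500 bp. The weak peak of the catalytic subunit lay just outside that window, at 534 bp.

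Around Akt and foxo, all 7 genes had a candidate and 5 had a peak, beside 28.8% of all genes with a candidate. The gene melt, a membrane adaptor of the pathway, had a signal of 361, with 220 in replicate 1 and 135 in replicate 2. The kinase gene sgg, the fly GSK3, had 353, with 162 and 187. The 14-3-3 protein gene 14-3-3zeta had 103, with a thresholded peak of 53.8 in replicate 1 only, and shared it with RpLP0-like. The genes 14-3-3epsilon and wdb had no peak.

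Between Akt and Tor, 3 of 4 genes had a candidate and 2 had a peak, beside 28.8% of all genes with a candidate. The small GTPase gene Rheb, the direct activator of TOR complex 1, had a peak of 713, shared with CG2931. Its signal was 354 in replicate 1 and 356 in replicate 2. TBC1D7, whose mammalian counterpart is a partner of the TSC complex that restrains Rheb, had 414 with 234 and 172, shared with Myo95E. Tsc1 and gig, the core of that complex, had none. All 4 genes of TOR complex 1 had a candidate. Of them Tor alone had a peak, shared with Vha68-1, beside 28.8% of all genes with a candidate. The genes raptor, Lst8 and PRAS40 had none. In TOR complex 2, 2 of 2 genes had a candidate. Sin1 had a weak peak of 103, with 64.1 and 41.6, shared with CG17385, and rictor had none.

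Of the 18 genes that pass amino acid signals to TOR, 15 had a candidate and 6 had a peak, beside 28.8% of all genes with a candidate. Lamtor3, of the lysosomal Ragulator complex, had 882, with 466 in replicate 1 and 416 in replicate 2, at a start region shared with fws. Sesn, the fly sestrin, had 755 with 395 and 359, shared with CG46429. Both were in the top 10% of combined peaks, at percentiles 94.078 and 93.048. Wdr24 had 340.3, shared with IntS11, and Iml1 had 107. Sec13 had 102, shared with ATPsynCF6, with a thresholded peak of 56.6 in replicate 2 only. Wdr59 had 76.2. Wdr24, Iml1, Sec13 and Wdr59 are all subunits of the GATOR complexes. The Rag GTPase genes RagA-B and RagC-D, and Lamtor1, Lamtor2, Lamtor4, Lamtor5, Nprl2, Nprl3, mio, Nup44A, slif and path, had none.

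All 7 energy and stress inputs had a candidate and 3 had a peak, beside 28.8% of all genes with a candidate. SNF4Agamma, the gamma subunit of AMPK, had peaks of 192 and 94.1 at different start sites. Lkb1, the kinase upstream of AMPK, had 191, shared with CG9588, and sima, the fly hypoxia-inducible factor, had 111. AMPKalpha, alc, scyl and chrb had none. Of the 13 outputs of TOR, 12 had a candidate and 7 had a peak, beside 28.8% of all genes with a candidate. Neither S6k nor Thor was among the 7 in the combined list.

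The strongest output peak was at Tif-IA, the initiation factor of RNA polymerase I, with 1421 in the combined list, 729 in replicate 1 and 696 in replicate 2. Atg13, a subunit of the autophagy-initiating kinase complex, had 806 with 445 and 332. REPTOR and its partner REPTOR-BP, transcription factors held in check by TOR complex 1, had 532 and 305, and the REPTOR-BP peak was shared with Rsf1. Mitf had 147, eIF4E1, the cap-binding protein that Thor inhibits, had 109.6, and RpS6, the substrate of S6k, had 82.4. Atg1, Myc, Maf1 and CRTC had none.

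The counts for the 9 genes changed with the list and the rule. With the conservative list 4 of 8 genes with a candidate had a peak, Thor being the addition, beside 28.4% of all genes with a candidate. Replicate 2 on its own left Tor and Akt, 2 of 6 genes with a candidate, beside 29.6%. Replicate 1 on its own kept Tor, Akt and foxo, beside 24.9%. Only Tor had a peak above the median signal of the combined list, beside 19.1%, and the Akt peak, at rank 2475 of 4948, fell just short of that median. A window of 200 bp left Tor and Akt, 2 of 6 genes with a candidate, beside 31.5% of all genes with a candidate. A window of 1000 bp added InR and Pi3K92E, beside 28.7%. Giving each peak to its nearest TSS kept Tor, Akt and foxo, beside 20.8% of all genes with a candidate. Counting any overlapping base added Pi3K92E, beside 28.2%. Against all 13945 protein-coding genes, with or without a candidate, the share with a peak was 21.4%, and it was 3 of 9 here. Tor alone had a peak under each of these lists and rules. With 200 bp and with the nearest TSS, that was only the weaker Tor summit of 57.7, not the main one of 2151.

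**Figure D4:**
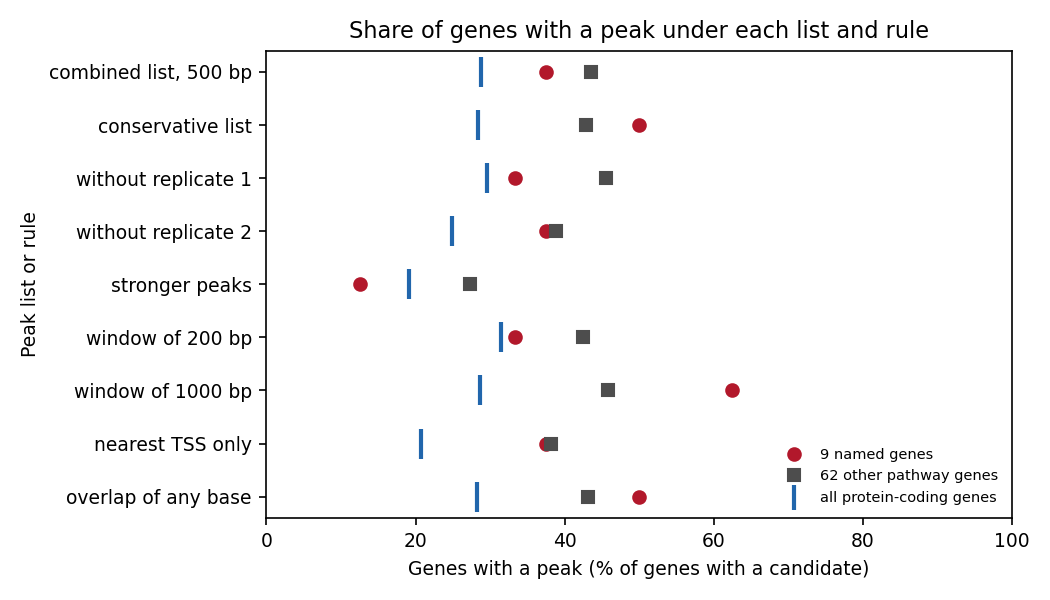
Genes with a peak as a percentage of genes with a candidate, for the 9 genes (circles), the 62 further pathway genes (squares) and all protein-coding genes (bars), under each peak list and rule. The circle moves from 12.5% with the stronger peaks to 62.5% with a window of 1000 bp, which is a change from 1 to 5 genes of 8, and the squares lie between 27.3% and 45.8%.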

How the data were processed

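Peak lists of 2 replicates of ssp-eGFP embryos were used as deposited, on dm6 per the labels. The authors thresholded ranked candidates by IDR, per the deposited notes. Which caller and aligner they used is not given in the sources used. The signal, as deposited, is the caller's value per peak, with no scaling between lists stated. The deposited score is the IDR score, and a second deposited score, in ranked lists, is −log10 of the global IDR. Each thresholded list was also derived from 1 file of a kind not stated. In the whole-series ranked lists 16 columns had no known sample and were left out.

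Summits, counted from 1, were assigned to every gene with an Ensembl release 115 TSS within 500 bp (Python 3.11.15, pandas 2.3.3, numpy 2.4.6, pyfaidx 0.9.0.4, matplotlib 3.10.9), a step tested on simulated data. Of 71 listed genes, 3, Tor included, matched only through a RefSeq synonym; 1 further listed gene is not reported here and was left out of all counts of the list. Members, role lists and motifs were chosen with earlier results of these data known. Described by name were the 9 genes, listed genes with a peak, genes sharing a summit, those most like Tor and those nearest the threshold. Other settings were other lists, peaks above the combined median, windows of 200 and 1000 bp, nearest TSS, any overlap, all genes as background and 100 bp motif windows. With 1 group, no p-value is given.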

Additional observations from a re-analysis of the deposited data

How the results depend on the processing

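Counts here are among genes with a candidate, first of the 9 genes and then of the 62 further genes. With only peaks above the median signal, 1 of 8 (Tor) and 15 of 55 had a peak, beside 19.1% of all genes with a candidate. A window of 1000 bp gave 5 of 8 among the 9 genes, adding InR and Pi3K92E. Without replicate 1 the counts were 2 of 6 and 20 of 44, beside 29.6%, and foxo was the gene lost. Without replicate 2 they were 3 of 8 and 21 of 54, beside 24.9%. Among the 9 genes, the conservative list gave 4 of 8, adding Thor, and any overlap gave 4 of 8, adding Pi3K92E. A window of 200 bp gave 2 of 6 and the nearest TSS 3 of 8. Among the 62, the conservative list gave 24 of 56 (42.9%), 200 bp 17 of 40 (42.5%) and 1000 bp 27 of 59 (45.8%). The nearest TSS gave 21 of 55 (38.2%) and any overlap 25 of 58 (43.1%). In the same order, the backgrounds were 28.4, 31.5, 28.7, 20.8 and 28.2%. Over all protein-coding genes the background was 21.4%. Motif matches at the described summits numbered 8 within 50 bp and 12 within 100 bp. Signal ranks within single-replicate lists were lower for Akt, at the 28.037th and 32.616th percentiles beside the 50th in the combined list. No paired analysis was possible because there was 1 group. Depth is unknown, so weak candidates cannot be read as an absence of the protein.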
